A study of Mus musculus with 12 samples.

Results

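The phase II conjugation enzymes of mouse liver were described here as the glutathione S-transferases (GSTs), UDP-glucuronosyltransferases (UGTs) and sulfotransferases (SULTs) measured on 12 microarrays. Members were all genes whose symbol in the array annotation starts with Gsta, Gstm, Gstp, Gstt, Gstk, Gstz, Ugt1, Ugt2, Ugt3 or Sult, without Sult1e1. Only probe sets paired with 1 gene symbol counted, and the set with the highest mean was kept for each gene. The rule used symbols and no measured difference, and it gave 42 genes of 19938, with 17 GSTs, 10 UGTs and 15 SULTs. The Ugt1 prefix gave no member, because its probe set is shared by several Ugt1a symbols.

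Liver RNA of 129Sv mice aged 12 weeks was hybridised to 1 Affymetrix array per sample, and every mouse had been fasted for 24 h. The groups, of 3 arrays each, were SIRT3KO mice on a high-fat diet, wild-type mice on a high-fat diet, SIRT3KO mice on a standard diet and wild-type mice on a standard diet. The high-fat diet was a Western diet with 42% fat given from weaning. SIRT3 is a protein deacetylase of mitochondria, and the study was made to measure how expression differs with diet. The labels name the genotype only as SIRT3KO, and they give neither the allele, nor the extent of the deletion, nor the sex of the mice. They give each array its own sample but do not state that each came from a separate litter or cage, so p-values measure the spread between these samples.

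Phase II enzymes attach a polar group to drugs, hormones, bile acids and products of lipid peroxidation, which makes these compounds easier to excrete into bile or urine. GSTs add glutathione, UGTs add a sugar taken from a UDP-sugar (mostly glucuronic acid) and SULTs add sulfate taken from the donor PAPS. Liver is a main site of all of these reactions, and in mouse liver many of the genes differ between males and females and respond to nuclear receptors such as CAR and PXR or to the oxidative stress factor NRF2.

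Values are log2 signals, so a difference of 1 is a doubling of signal. Brightness also depends on the probes, so the signal of one gene was not read as a level against that of another, and the brightest probe set served only to choose which gene of each class to name. A gene was called where its limma p, adjusted by Benjamini-Hochberg across the 19938 genes, was under 0.05. Array medians lay between 6.34 and 6.47. The mean of 13 measured hepatocyte markers was 13.30 to 13.48 on every array. Sirt3 itself was at 8.92, 8.49 and 8.87 on the high-fat SIRT3KO arrays, against 9.29, 9.14 and 9.13 on the high-fat wild-type arrays. With the standard diet it was at 8.83, 8.94 and 8.95 in SIRT3KO livers, against 8.97, 9.04 and 9.13 in wild-type livers. Its differences of -0.42 and -0.14 did not pass the test (limma adjusted p = 1 and 0.66), and the position of its probes relative to the deletion is not given, so the labels could not be checked with it. In bulk liver, fewer cells of a type and less RNA per cell cannot be told apart.

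The first standard-diet SIRT3KO array stood apart from the others. It lay outside the range of the other 11 arrays for 18 of the 42 members, 8 above and 10 below, whereas each of the other arrays did so for 3 to 11 members. On it the mean of 20 acute-phase genes was 11.90, against 10.04 to 10.72 on the other arrays. The mean of 13 male-biased liver genes was 8.73, against 9.76 to 10.66, and that of 14 female-biased liver genes was 7.75, against 6.77 to 7.10. Among the female-biased genes A1bg was at 7.14 on it, against 4.94 to 5.41, and Cux2 at 7.59, against 6.75 to 7.14. Cyp17a1 was at 11.7, against 7.29 to 10.7. Cyp2b9 (3.86) and Cyp2b13 (4.38) lay inside the range of the others, but both were dim on all arrays, at 3.61 to 4.49. The mean of 3 Y-linked genes was 6.74, against 7.50 to 8.17, while Xist was at 4.44, inside the 4.31 to 4.80 of the others. The mean of 8 bile duct markers was 6.32 on this array and 6.31 on the second standard-diet SIRT3KO array. On the remaining arrays it was 5.93 to 6.18. The part of these differences in the results was not tested. The differences of named members that use this array are given with and without it. The third high-fat wild-type array was the highest for 12 macrophage and Kupffer cell markers, with a mean of 8.77, against 8.10 to 8.34 on the other arrays.

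**Figure D1:**
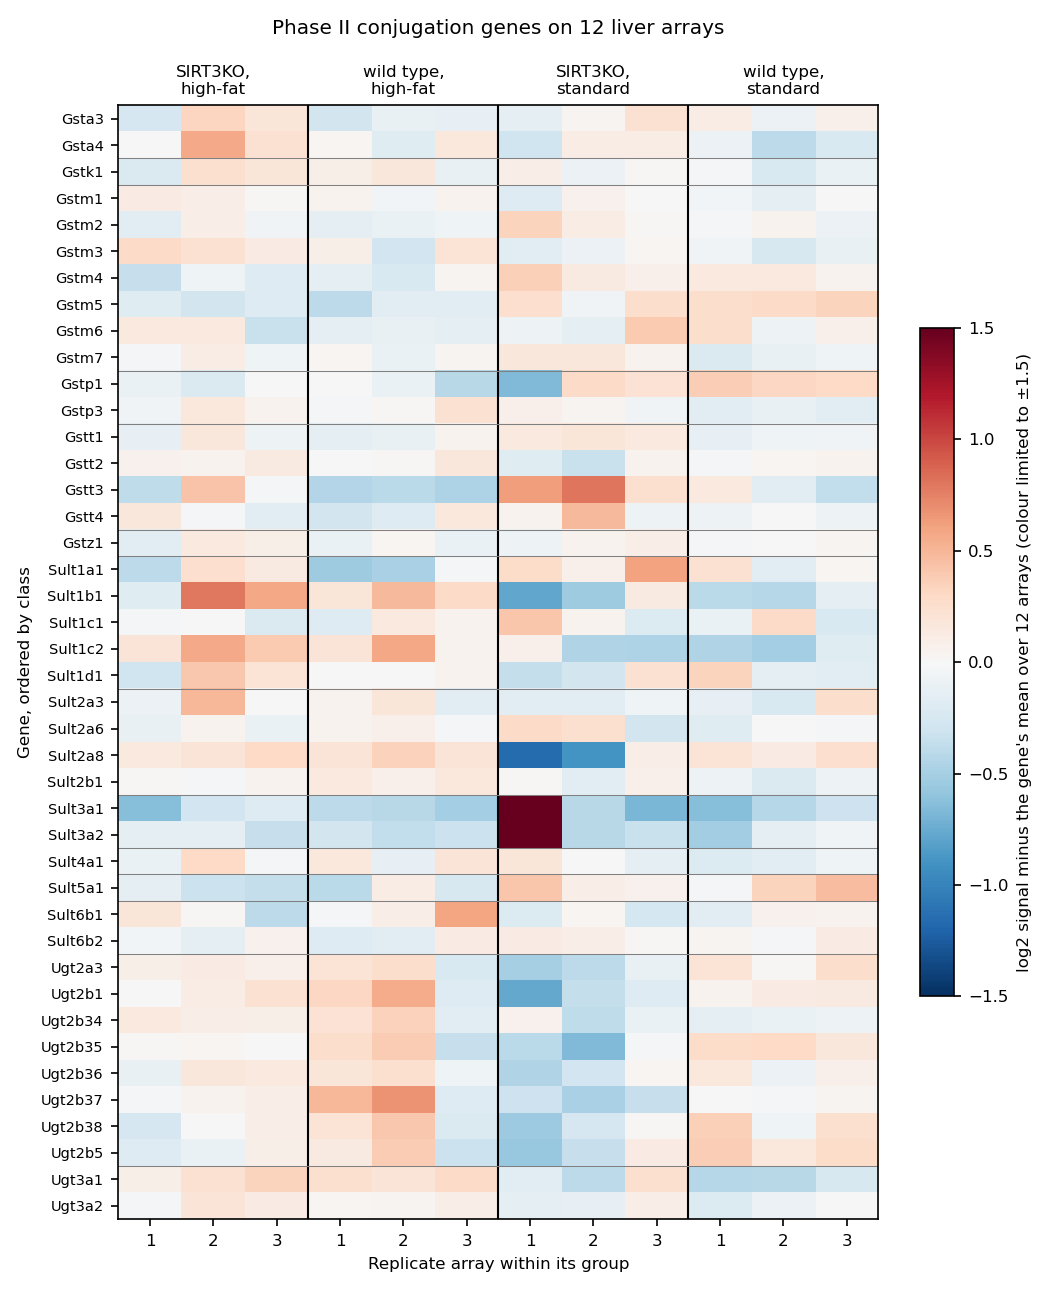
Log2 signal of each of the 42 genes minus its mean over 12 arrays (colour, limited to ±1.5), with genes down the page by class and replicate arrays 1 to 3 of each group across. The first standard-diet SIRT3KO array has the strongest colours, with Sult3a1 and Sult3a2 far above all other arrays.

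Of the 42 members, 35 had a mean log2 signal of at least 5 and 7 were dimmer, with means over the 12 arrays from 3.40 to 13.06. The brightest probe set of each class belonged to Gsta3, Gstk1, Gstm1, Gstp1, Gstt1, Gstz1, Ugt2b36, Ugt3a2, Sult1d1, Sult2a8, Sult3a1, Sult4a1, Sult5a1 and Sult6b2. Among these, Gstz1 also acts as maleylacetoacetate isomerase in tyrosine breakdown and Gstk1 is a GST of mitochondria and peroxisomes. Gstz1 lay between 11.89 and 12.20 on all arrays and Gstk1 between 10.76 and 11.23, so both varied little. Gsta3 lay between 12.12 and 12.72, Gstm1 between 11.90 and 12.22, Gstt1 between 9.98 and 10.31, Ugt2b36 between 11.82 and 12.50 and Ugt3a2 between 11.25 and 11.65. The median SD of a member between replicates was 0.127 in high-fat SIRT3KO, 0.153 in high-fat wild-type, 0.213 in standard-diet SIRT3KO and 0.1 in standard-diet wild-type livers.

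RefSeq promoter sequence, taken as the 250 bases before the annotated start on GRCm38.p6, was found for 38 of the 42 members, as 48 promoters. The capitals in the sequences mark a match to 1 of 4 motifs searched on both strands. The core of the antioxidant response element, bound by NRF2, was spelled TGACNNNGC (GCNNNGTCA on the other strand) and stood in 10.2% of 32851 promoters and in 3 of 48 member promoters, those of Gsta3, Gstm5 and Gstm7. The STAT motif TTCNNNGAA stood in 7.02% of all promoters and in 2 of 48, those of Gstm6 and Sult3a1. The HNF1 core GTTAATNAT (ATNATTAAC) stood in 0.737% of all promoters and in 3 of 48, those of Sult1d1, Sult2a3 and Sult2a6. The HNF4 motif CAAAGTCCA (TGGACTTTG) stood in 0.384% of all promoters and in none of the 48 member promoters. A match describes the letters and is not a site or a cause, and no match says only that these letters are not in this window. No match overlapped another in the sequences shown. Gstm5 and Sult1c2 are shown because they passed the diet test in opposite directions. They lie at chr3:107895604-107895853 on the plus strand and chr17:53845959-53846208 on the minus strand. Sult3a1 and Sult3a2 are shown because both stood far above all other arrays on a single array. They lie at chr10:33857472-33857721 on the plus strand and chr10:33782116-33782365 on the minus strand.
Gstm5: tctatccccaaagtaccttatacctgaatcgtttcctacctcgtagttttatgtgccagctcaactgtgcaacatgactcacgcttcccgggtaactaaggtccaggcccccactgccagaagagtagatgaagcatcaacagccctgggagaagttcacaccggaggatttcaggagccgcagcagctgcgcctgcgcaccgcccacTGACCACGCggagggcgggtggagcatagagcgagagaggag
Sult1c2: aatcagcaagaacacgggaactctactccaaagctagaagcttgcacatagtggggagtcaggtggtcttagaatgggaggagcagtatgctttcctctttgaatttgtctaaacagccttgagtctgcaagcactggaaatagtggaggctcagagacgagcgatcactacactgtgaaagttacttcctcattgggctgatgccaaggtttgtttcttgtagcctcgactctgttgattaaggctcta
Sult3a1: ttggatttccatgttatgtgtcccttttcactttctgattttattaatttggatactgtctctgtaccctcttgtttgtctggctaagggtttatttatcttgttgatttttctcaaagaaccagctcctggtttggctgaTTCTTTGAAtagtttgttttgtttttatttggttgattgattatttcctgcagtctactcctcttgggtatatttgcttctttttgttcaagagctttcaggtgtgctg
Sult3a2: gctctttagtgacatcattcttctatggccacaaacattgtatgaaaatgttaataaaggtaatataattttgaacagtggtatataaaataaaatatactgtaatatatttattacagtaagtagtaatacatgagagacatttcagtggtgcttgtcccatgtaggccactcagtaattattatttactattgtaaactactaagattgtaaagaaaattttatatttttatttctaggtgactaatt
In Gstm5 the capitals mark the antioxidant response element core, 42 to 34 bases before the start. In Sult3a1 they mark the STAT motif, 109 to 101 bases before the start. The Sult1c2 and Sult3a2 windows hold none of the 4 motifs.

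No phase II gene passed the test between genotypes on either diet. On the high-fat diet 0 of 42 members were called by limma, against 0.00% of all genes, and 1 member had an unadjusted p under 0.05, against 2.86% of all genes. On the standard diet 0 of 42 members were called, against 0.00502% of all genes (1 gene), and 11 had an unadjusted p under 0.05, 3 higher and 8 lower in SIRT3KO livers, against 9.73% of all genes. The median difference of the members was 0.02 on the high-fat diet and 0.03 on the standard diet, against -0.02 and 0.04 for all genes. Without the first standard-diet SIRT3KO array, 0 members were called on each diet, and 10 members had an unadjusted p under 0.05 on the standard diet, against 6.35% of all genes. In simulated data for the standard-diet comparison the fit recovered 56.7% of 67 genes changed by 0.5 and 95.5% of 67 changed by 1. Another 66 genes were changed by 2, and the run gave 13 false calls. An adjusted p depends on how many genes change, and the real comparison called 1 gene. These shares were therefore not read as the chance of finding a change of that size among the members.

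**Figure D2:**
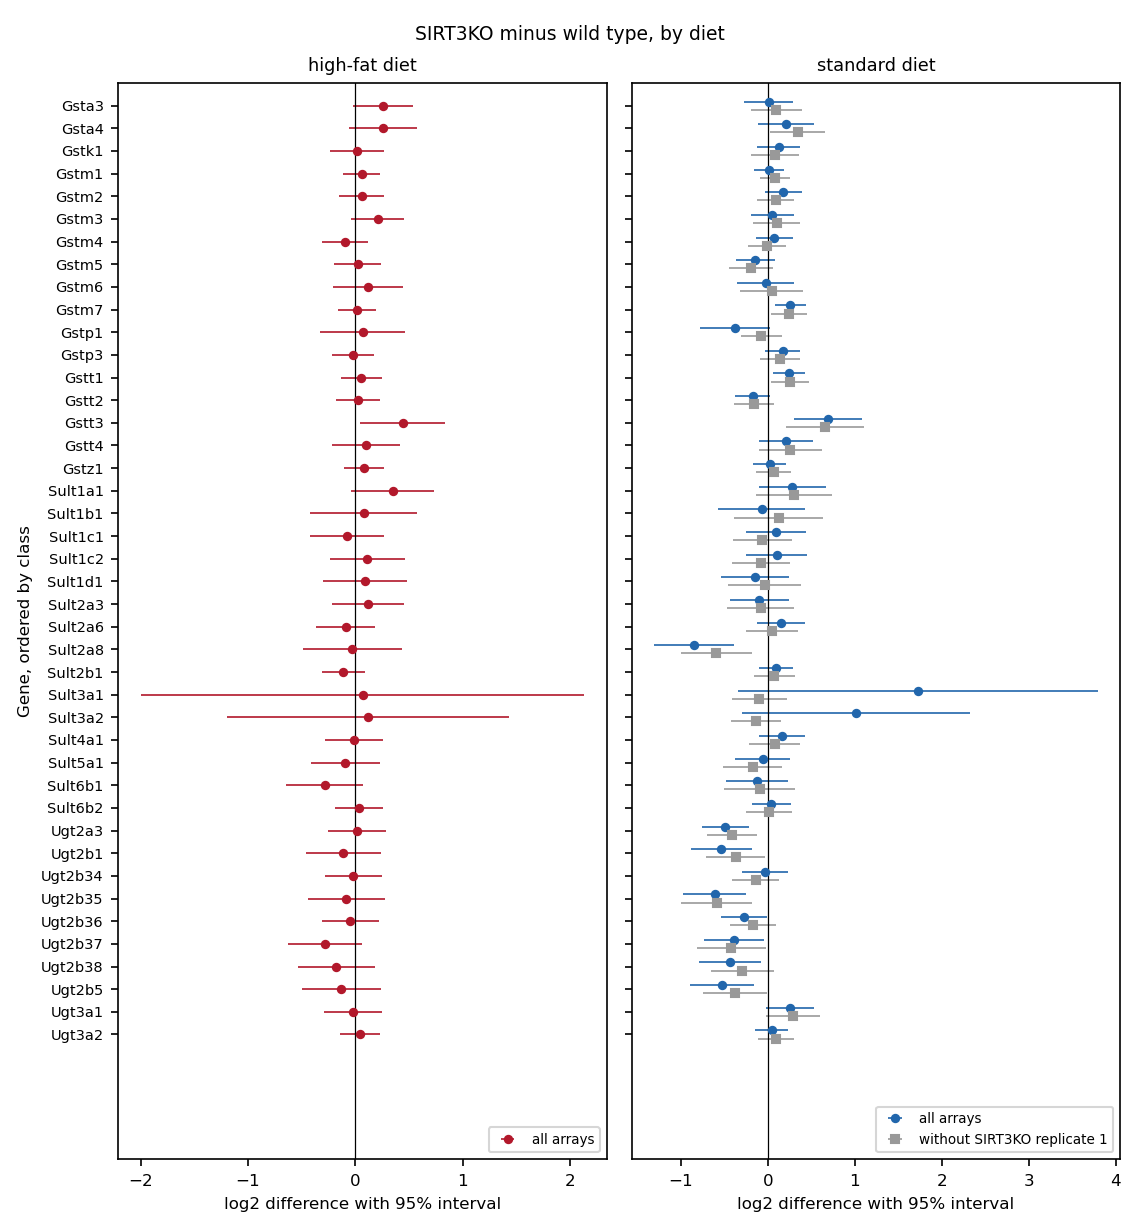
Log2 difference, SIRT3KO minus wild type, of each of the 42 genes with its 95% interval, for the high-fat diet on the left and the standard diet on the right (grey squares leave out SIRT3KO replicate 1). No gene is ringed, since none passed the test, and all 8 Ugt2 genes lie below 0 on the standard diet.

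Among the GSTs, Gstt3, a theta-class transferase, had the smallest p of all members between genotypes on the high-fat diet and was among the 5 smallest on the standard diet. Its signal was 8.16, 8.97 and 8.53 in high-fat SIRT3KO livers, against 8.11, 8.14 and 8.08 in high-fat wild-type livers. On the standard diet it was 9.17, 9.35 and 8.78 in SIRT3KO livers, against 8.68, 8.38 and 8.18 in wild-type livers. Every SIRT3KO array lay above every wild-type array of the same diet. The difference was 0.44 (SE 0.184, limma adjusted p = 1) on the high-fat diet and 0.69 (SE 0.184, limma adjusted p = 0.502) on the standard diet, or 0.65 without the first SIRT3KO array. Groups did not overlap for 1 member higher and 1 lower on the high-fat diet, Gstt3 and Sult2b1, against 2.41% of all genes higher and 4.27% lower.

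The other GSTs showed smaller differences. Gsta3, an alpha-class transferase and one of the main ones of liver, was at 12.14, 12.72 and 12.57 in high-fat SIRT3KO livers, against 12.12, 12.28 and 12.27 in high-fat wild-type livers, a difference of 0.25 with overlapping groups. Gstm3, a mu-class transferase, was at 10.19, 10.12 and 10.02, against 9.99, 9.61 and 10.11, a difference of 0.21, also with overlap. Neither passed the test (limma adjusted p = 1 for both). On the standard diet, Gstm7 differed by 0.26, Gstt1 by 0.24 and Gstp3 by 0.17, each with no overlap and higher in SIRT3KO livers, and Gstm5 by -0.14 and Gstp1 by -0.38, lower with no overlap. Without the first SIRT3KO array the difference was 0.24 for Gstm7, 0.25 for Gstt1, 0.14 for Gstp3 and -0.19 for Gstm5. Gstp1, the pi-class transferase, which is male-biased in mouse liver, was at 12.40, 13.34 and 13.27 in standard-diet SIRT3KO livers, against 13.43, 13.37 and 13.36 in standard-diet wild-type livers. Without the first SIRT3KO array, on which it was lowest, its difference was -0.08 and the groups still did not overlap.

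The Ugt2 class, whose members glucuronidate steroids, bile acids and drugs, had the lowest median difference of all 14 classes on the standard diet. All 8 Ugt2 members were lower in SIRT3KO than in wild-type livers by group mean, with a median difference of -0.46 over the class, against 0.04 over all genes. Of these, 7 had an unadjusted p under 0.05, against 9.73% of all genes, and 0 passed the test, against 0.00502% of all genes. Groups did not overlap for 5 of 8, namely Ugt2a3, Ugt2b1, Ugt2b35, Ugt2b37 and Ugt2b5. Over all members 8 of 42 (19.0%) were lower and 4 of 42 (9.52%) higher with no overlap, against 4.52% and 9.88% of all genes. Without the first SIRT3KO array the class median was -0.38, and again 5 of 8 did not overlap, though with 2 arrays against 3 this is met by more genes (7.29% of all genes lower). On the high-fat diet the class median was -0.10, 0 of 8 did not overlap, and 7 of 8 were below 0. That median rests on the third high-fat wild-type array, which was the lowest of its group for all 8 members. Leaving it out therefore lowers the median by construction. Without that array the class median on the high-fat diet was -0.31, against -0.03 for all genes, with all 8 members below 0. Of these, 0 were called by limma, against 0.00502% of all genes.

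Ugt2a3 was at 11.18, 11.29 and 11.57 in standard-diet SIRT3KO livers, against 11.89, 11.70 and 11.94 in standard-diet wild-type livers. Ugt2b35 was at 10.09, 9.84 and 10.48, against 10.77, 10.80 and 10.67 in the same groups. Ugt2b1 was at 11.07, 11.48 and 11.64, against 11.88, 11.95 and 11.96. In all 3 genes each SIRT3KO array lay below each wild-type array, and the third SIRT3KO array was the closest to the wild-type arrays. The differences were -0.49 (SE 0.126) for Ugt2a3, -0.61 (SE 0.168) for Ugt2b35 and -0.54 (SE 0.163) for Ugt2b1, each with a limma adjusted p of 0.502. Without the first SIRT3KO array they were -0.41, -0.59 and -0.37, each with a limma adjusted p of 0.774.

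The Ugt2 genes lie on 1 chromosome in RefSeq. The class mean, taken after centring each gene on its own mean, was -0.43, -0.39 and -0.07 in standard-diet SIRT3KO livers, against 0.16, 0.04 and 0.14 in standard-diet wild-type livers. With the high-fat diet it was -0.04, 0.06 and 0.10 in SIRT3KO livers, against 0.25, 0.40 and -0.22 in wild-type livers. All 8 members were highest on the second and lowest on the third high-fat wild-type array, the one with the highest macrophage marker mean. In standard-diet SIRT3KO livers 0 of 8 were lowest on the third array and 6 of 8 were highest there. The other groups were more mixed, with at most 5 of 8 lowest and at most 4 of 8 highest on any 1 array, both in high-fat SIRT3KO and in standard-diet wild-type livers. The second standard-diet SIRT3KO array was low in the class with an acute-phase mean of 10.26, inside the range of the other arrays. Its male-biased mean of 9.88 was also inside that range but below all wild-type arrays, at 9.99 to 10.66. On the third standard-diet SIRT3KO array, which was less low in the class, the male-biased mean was 9.76. The mean of 3 Y-linked genes on the second array, 7.50, was below those of all arrays but the first SIRT3KO array. The part of these marker differences in the result was not tested. These genes are close paralogs, and the share of their common movement that comes from probes binding more than 1 of them was not tested.

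**Figure D3:**
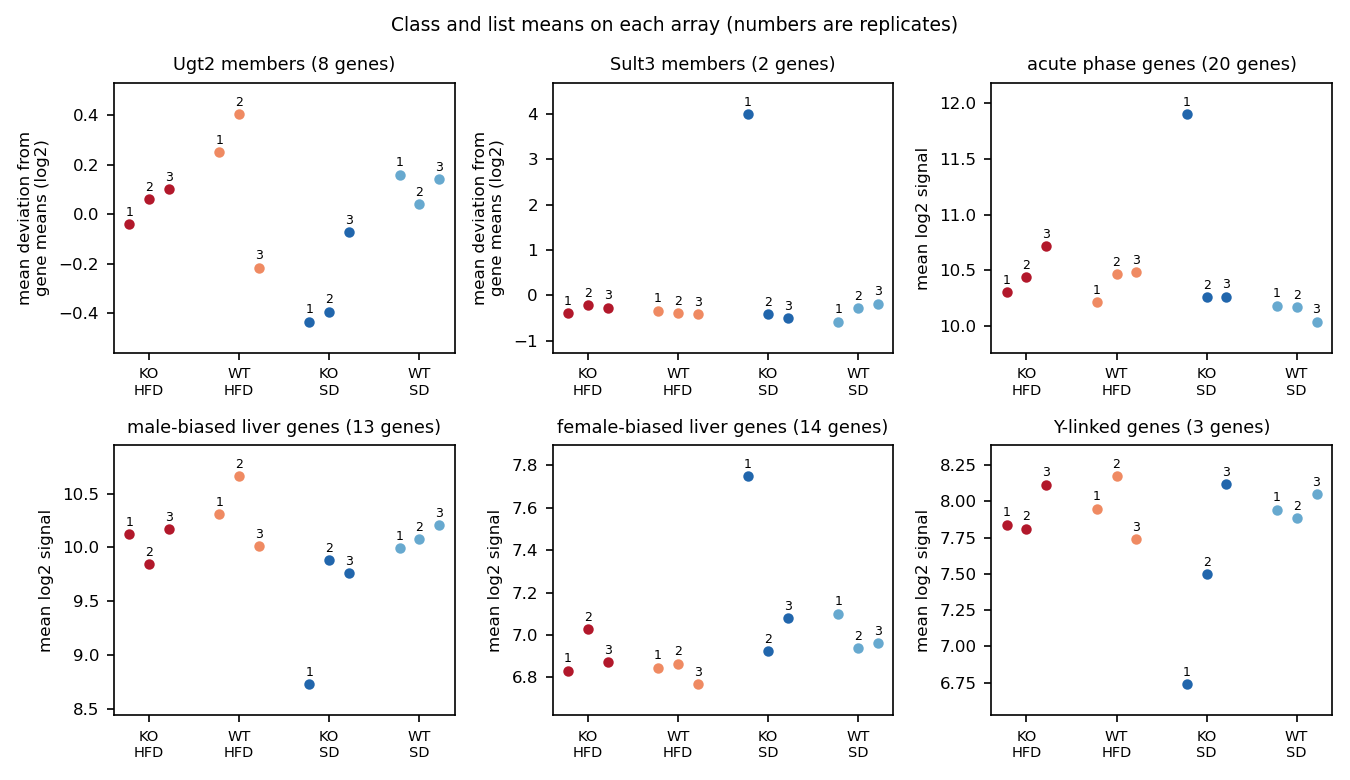
Mean deviation (log2) of the Ugt2 and Sult3 members from their gene means, and mean log2 signal of 4 marker lists, on each of the 12 arrays (points, numbered by replicate) by group (KO, SIRT3KO; WT, wild type; HFD, high-fat diet; SD, standard diet). The first standard-diet SIRT3KO array is at 11.90 for acute-phase genes and at 8.73 for male-biased genes, outside the range of all others.

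Among the SULTs, Sult2a8, which sulfates bile acids in mouse liver, had the smallest p of all members on the standard diet. Its signal was 10.58, 10.84 and 11.84 in standard-diet SIRT3KO livers, against 11.94, 11.87 and 12.00 in standard-diet wild-type livers. On the high-fat diet it was 11.90, 11.93 and 12.05 in SIRT3KO livers, against 11.93, 12.09 and 11.93 in wild-type livers. The first and second standard-diet SIRT3KO arrays were low, while the third lay just below the wild-type arrays and the other 3 groups lay close together. The difference on the standard diet was -0.85 (SE 0.215, limma adjusted p = 0.502), and without the first SIRT3KO array it was -0.59 (limma adjusted p = 0.774). Leaving out the third SIRT3KO array instead gave -1.22 (SE 0.0974, limma adjusted p = 0.000132), so the call depended on which SIRT3KO arrays were included. That array was the nearest to the wild-type arrays. Leaving it out therefore enlarges the difference and narrows the spread of the group by construction. On the high-fat diet the difference was -0.03 (SE 0.215).

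Sult3a1 and Sult3a2 are amine sulfotransferases, of which Sult3a1 is female-biased in mouse liver. Their genotype differences on the standard diet rested on 1 array. Sult3a1 was at 8.64, 3.30 and 3.03 in standard-diet SIRT3KO livers, against 3.08, 3.29 and 3.41 in standard-diet wild-type livers. Sult3a2 was at 6.47, 2.98 and 3.07, against 2.87, 3.26 and 3.34. Both were at 3.02 to 3.52 on all high-fat arrays. Apart from the first standard-diet SIRT3KO array these are among the lowest signals of all members, where RMA values have little room to fall. The first SIRT3KO array therefore lay 5.48 for Sult3a1 and 3.44 for Sult3a2 above the mean of the other arrays of its group. Since those other arrays lie at the low end of the scale, the size of either gap is uncertain. These 2 genes lie near each other on the chromosome, as their promoters show. The genotype difference on the standard diet was 1.73 for Sult3a1 and 1.01 for Sult3a2 with all arrays, and neither passed the test (limma adjusted p = 0.555 and 0.585). Without that array it was -0.10 and -0.14 (limma adjusted p = 0.934 and 0.884), and no direction was read from these low signals.

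None of the remaining SULTs passed the test between genotypes. Sult1a1, which sulfates phenols, was at 10.12, 10.77 and 10.65 in high-fat SIRT3KO livers, against 9.98, 10.02 and 10.49 in high-fat wild-type livers. The difference was 0.35 with overlapping groups (SE 0.18, limma adjusted p = 1). Ugt2b37 of the glucuronosyltransferases was at 6.49, 6.56 and 6.60 in high-fat SIRT3KO livers, against 7.00, 7.18 and 6.32 in high-fat wild-type livers, a difference of -0.28 with overlap (limma adjusted p = 1).

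Between diets a small number of phase II genes passed the test, at a share close to that of all genes. In SIRT3KO livers 3 of 42 members (7.14%) were called, 2 higher and 1 lower on the high-fat diet, against 5.11% of all genes (2.45% higher and 2.66% lower). In wild-type livers 3 of 42 (7.14%) were called, 2 higher and 1 lower, against 5.99% (4.30% higher and 1.69% lower). On the mean of both genotypes 8 of 42 (19.0%) were called, 4 higher and 4 lower, against 18.0% of all genes (10.3% higher and 7.69% lower). Without the first standard-diet SIRT3KO array 1 member was called in SIRT3KO livers, 4 in wild-type livers and 9 on the mean, against 2.55%, 5.92% and 15.3% of all genes. These shares are near the background and say nothing particular about the class. The median difference of the members was 0.05 in SIRT3KO livers, 0.03 in wild-type livers and 0.11 on the mean of both, against -0.01, 0.04 and 0.01 for all genes. Groups did not overlap for 8 members higher and 3 lower in SIRT3KO livers, against 10.6% and 13.2% of all genes, and for 6 higher and 6 lower in wild-type livers, against 19.4% and 10.9%.

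Each comparison of diets lies across what appear to be separate normalization runs. Of all probe sets, 335 have no value on any standard-diet array. Chemosensory receptor genes, which are dim in liver, were called at 7.64% in SIRT3KO livers, against 4.94% of other genes. In wild-type livers the shares were 11.3% and 5.64%, and on the mean of both genotypes 23.0% and 17.6%. With a variance added for an offset between the runs, 0 of 42 members were called in every diet comparison, and 9 of all genes were called on the mean of both genotypes, so each diet call of a member below holds only without such an offset.

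**Figure D4:**
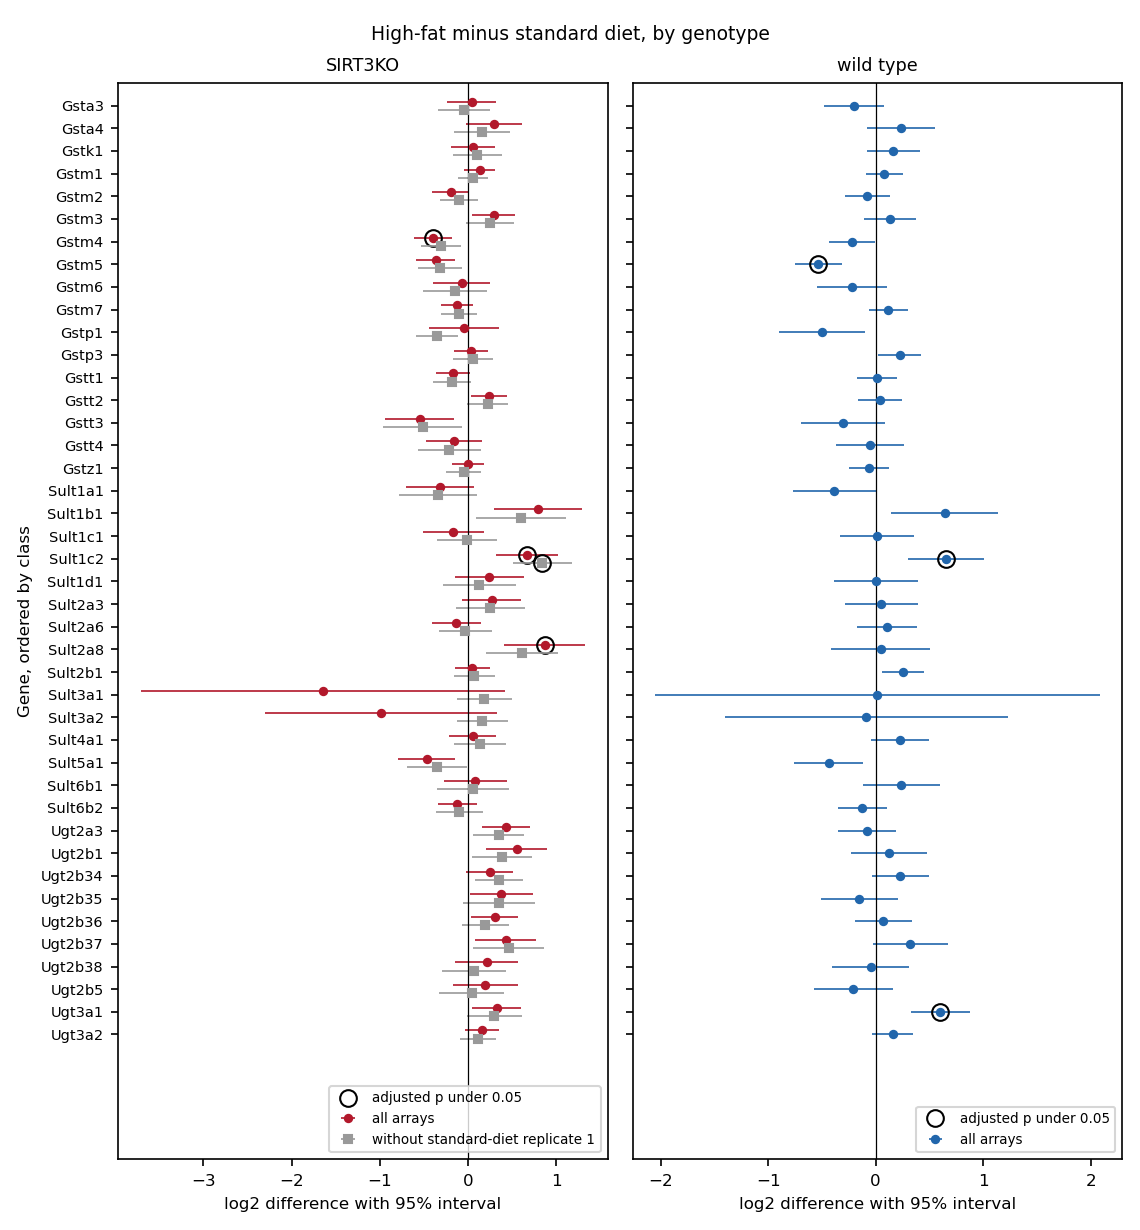
Log2 difference, high-fat minus standard diet, of each of the 42 genes with its 95% interval, for SIRT3KO on the left (grey squares leave out standard-diet replicate 1) and wild type on the right. Rings mark a limma adjusted p under 0.05, and Sult1c2 is ringed in both panels.

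Sult1c2, a cytosolic sulfotransferase of the family that acts on phenols, was the only member called in both genotypes. Its signal was 7.34, 7.71 and 7.54 in high-fat SIRT3KO livers, against 7.22, 6.70 and 6.68 in standard-diet SIRT3KO livers. In wild-type livers it was 7.34, 7.72 and 7.20 on the high-fat diet, against 6.70, 6.63 and 6.97 on the standard diet. High-fat arrays lay above standard-diet arrays of the same genotype without overlap, and the first standard-diet SIRT3KO array was the highest of the standard-diet arrays. Sult1c2 rose by 0.66 (SE 0.164, 1.58-fold, limma adjusted p = 0.0331) in SIRT3KO livers and by 0.65 (SE 0.164, 1.57-fold, limma adjusted p = 0.0327) in wild-type livers. Without the first standard-diet SIRT3KO array the rise in SIRT3KO livers was 0.84 (limma adjusted p = 0.0159). Each call was lost with 4 of the 12 arrays left out in turn, and the wild-type call also with quantile normalization (limma adjusted p = 0.0548) and with median centring (limma adjusted p = 0.0629). The interaction, the diet difference in SIRT3KO minus that in wild type, was 0.01 with a 95% interval from -0.49 to 0.51, or 0.19 without that array.

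Sult1b1, which sulfates phenols including thyroid hormones, passed the test on the mean of both genotypes. It was at 7.69, 8.66 and 8.45 in high-fat SIRT3KO livers, against 7.08, 7.33 and 8.00 in standard-diet SIRT3KO livers, which overlapped. The wild-type values were 8.05, 8.36 and 8.15 on the high-fat diet, against 7.46, 7.44 and 7.73 on the standard diet, without overlap. Sult1b1 rose by 0.72 on the mean of both genotypes (SE 0.165, 1.64-fold, limma adjusted p = 0.00896), or by 0.62 without the first standard-diet SIRT3KO array. Within a genotype it was not called, at 0.79 in SIRT3KO livers (limma adjusted p = 0.0641, or 0.60 and 0.208 without that array) and 0.64 in wild-type livers (limma adjusted p = 0.119).

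Sult2a8 rose on the high-fat diet in SIRT3KO livers by 0.87 (SE 0.215, 1.82-fold, limma adjusted p = 0.0331). The comparison shares its standard-diet SIRT3KO arrays with the genotype comparison above, so both rest on the same low values of 10.58 and 10.84. Without the first of these arrays the difference was 0.61 and did not pass the test (limma adjusted p = 0.103). In wild-type livers the difference was 0.05 (SE 0.215). The interaction was 0.82 (SE 0.304) and was not called (limma adjusted p = 0.945). It was 0.57 without the first standard-diet SIRT3KO array, but without the third it was 1.20 (limma adjusted p = 0.00657). The third was the one nearest the other groups, so leaving it out enlarges the interaction by construction.

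Sult5a1, a sulfotransferase with no well-known substrate, fell on the high-fat diet on the mean of both genotypes. It was at 7.03, 6.84 and 6.80 in high-fat SIRT3KO livers, against 7.59, 7.26 and 7.23 in standard-diet SIRT3KO livers, without overlap. The wild-type livers had 6.76, 7.27 and 6.93 on the high-fat diet, against 7.15, 7.50 and 7.62 on the standard diet, with overlap. The mean difference was -0.45 (SE 0.106, limma adjusted p = 0.00948), or -0.40 without the first standard-diet SIRT3KO array (limma adjusted p = 0.0222).

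Of the GSTs, the mu-class Gstm5 and Gstm4 fell on the high-fat diet. Gstm5 was at 6.93, 6.83 and 6.91 in high-fat SIRT3KO livers, against 7.36, 7.05 and 7.37 in standard-diet SIRT3KO livers. Wild-type livers had 6.71, 6.95 and 6.95 on the high-fat diet, against 7.37, 7.40 and 7.44 on the standard diet. No high-fat array reached the standard-diet arrays of its genotype. Gstm5 fell by 0.53 in wild-type livers (SE 0.103, 1.45-fold, limma adjusted p = 0.00948) and by 0.45 on the mean of both genotypes (SE 0.0729, limma adjusted p = 0.00111), or by 0.43 without the first standard-diet SIRT3KO array (limma adjusted p = 0.0032). In SIRT3KO livers the difference was -0.37 and did not pass the test (limma adjusted p = 0.0527), and the interaction of 0.16 had a 95% interval from -0.15 to 0.48. Without that array these were -0.32 (limma adjusted p = 0.164) and 0.21.

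Gstm4 was at 9.66, 9.94 and 9.81 in high-fat SIRT3KO livers, against 10.36, 10.14 and 10.08 in standard-diet SIRT3KO livers. In wild-type livers it was at 9.87, 9.78 and 10.05 on the high-fat diet, against 10.15, 10.16 and 10.06 on the standard diet. Groups of the same genotype did not overlap, though in wild-type livers the nearest arrays were almost level. Gstm4 fell by 0.39 in SIRT3KO livers (SE 0.101, 1.31-fold, limma adjusted p = 0.0374) and by 0.31 on the mean of both genotypes (limma adjusted p = 0.00912). Leaving out the first standard-diet SIRT3KO array, the difference in SIRT3KO livers was -0.31 and was not called (limma adjusted p = 0.13), while that on the mean was -0.27 and was called (limma adjusted p = 0.0201). The call in SIRT3KO livers held with 3 of the 12 arrays left out in turn and under 5 of 11 other settings. It was lost among others with median centring (limma adjusted p = 0.0577), cyclic loess (0.0504), the replicate number as a block (0.0564) and only the groups compared (0.107). The other 5 mu-class genes, Gstm1, Gstm2, Gstm3, Gstm6 and Gstm7, were called in no comparison.

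Gstt3 fell by 0.43 on the mean of both genotypes (SE 0.13, limma adjusted p = 0.0355), with the array values given above. It was not called within either genotype, at -0.55 in SIRT3KO livers (-0.51 without the first standard-diet array) and -0.30 in wild-type livers, and without the first standard-diet SIRT3KO array the mean of -0.41 was not called either (limma adjusted p = 0.0636). Gstp1 behaved in the opposite way when that array was left out. It was at 12.96, 12.84 and 13.07 in high-fat SIRT3KO livers and at 13.06, 12.96 and 12.64 in high-fat wild-type livers, against the standard-diet values given above. With all arrays its mean difference between diets was -0.27 and was not called (limma adjusted p = 0.167). Without the first standard-diet SIRT3KO array, which had the lowest Gstp1 signal of all, it fell by 0.42 (SE 0.0734, limma adjusted p = 0.00222).

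Among the UGTs, Ugt3a1 rose on the high-fat diet. Human UGT3A1 uses UDP-N-acetylglucosamine as its sugar donor. Its signal was 10.25, 10.39 and 10.49 in high-fat SIRT3KO livers, against 10.00, 9.77 and 10.40 in standard-diet SIRT3KO livers. The wild-type signals were 10.40, 10.35 and 10.45 on the high-fat diet, against 9.73, 9.75 and 9.92 on the standard diet. The wild-type groups did not overlap, while the third standard-diet SIRT3KO array lay among the high-fat arrays. Ugt3a1 rose by 0.60 in wild-type livers (SE 0.128, 1.52-fold, limma adjusted p = 0.0162) and by 0.46 on the mean of both genotypes (SE 0.0906, limma adjusted p = 0.00364), or by 0.45 without the first standard-diet SIRT3KO array (limma adjusted p = 0.00802). In SIRT3KO livers the difference was 0.32 (limma adjusted p = 0.161), and the interaction of -0.28 had a 95% interval from -0.67 to 0.11. Without that array these were 0.29 and -0.31.

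Of the Ugt2 class only Ugt2b37 was called, and only on the mean of both genotypes. Beside its high-fat values given above, it was at 6.19, 6.02 and 6.16 in standard-diet SIRT3KO livers, against 6.51, 6.48 and 6.55 in standard-diet wild-type livers. High-fat arrays lay above standard-diet arrays in SIRT3KO livers, and the wild-type groups overlapped. It rose by 0.37 (SE 0.115, limma adjusted p = 0.0372), or by 0.39 without the first standard-diet SIRT3KO array (limma adjusted p = 0.0484), and the call held with 3 of the 12 arrays left out in turn. In SIRT3KO livers all 8 Ugt2 members were higher on the high-fat diet by group mean, with a class median of 0.34, against -0.01 for all genes, and 5 did not overlap, against 10.6% of all genes higher without overlap. The class median in SIRT3KO livers was 0.35 without the first standard-diet array. In wild-type livers the class median was 0.01, against 0.04 for all genes, with 4 of 8 above 0. The class median of the interaction was 0.33, against -0.05 for all genes, with all 8 members above 0, and 0 of 8 passed the test. The interaction median was 0.19 without the first standard-diet SIRT3KO array. Without the third high-fat wild-type array the interaction median was 0.17, against -0.06 for all genes, with 6 of 8 above 0. The wild-type median between diets was then 0.14, against 0.05 for all genes, with 7 of 8 above 0. Of the 8 only Ugt2b37 was called by limma in that wild-type comparison, against 4.20% of all genes. These diet, genotype and interaction values share the standard-diet SIRT3KO arrays and are not separate evidence.

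**Figure D5:**
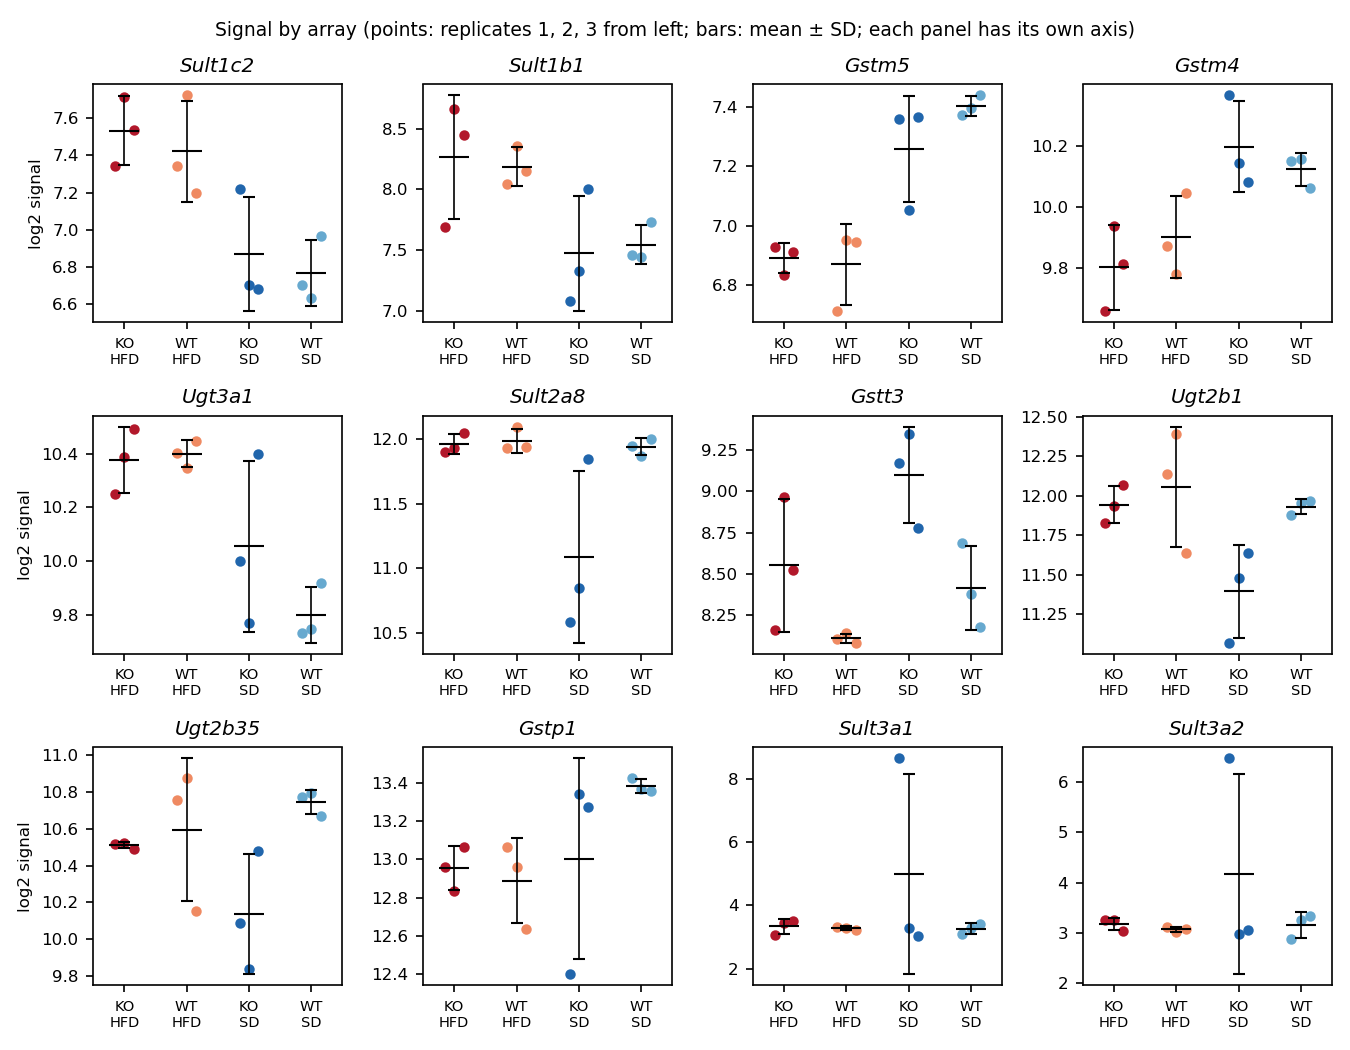
Log2 signal of 12 named genes on every array (points, with bars for the mean ± SD, n = 3), each panel with its own axis, with high-fat SIRT3KO (KO HFD), high-fat wild type (WT HFD), standard-diet SIRT3KO (KO SD) and standard-diet wild type (WT SD) from left to right. Sult2a8 is low on the first and second standard-diet SIRT3KO arrays, at 10.58 and 10.84, and Sult1c2 is higher on high-fat arrays in both genotypes.

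No member passed the test of the interaction between genotype and diet, against 0.00% of all genes, and 3 members had an unadjusted p under 0.05, against 4.73% of all genes. The smallest p belonged to Ugt2a3, at 0.51 (SE 0.179), followed by Sult2a8. Ugt2b35 was at 0.53 (SE 0.238), Ugt2b1 at 0.42 (SE 0.231) and Gstm7 at -0.25 (SE 0.119). Each had a limma adjusted p of 0.945. The interaction without the first standard-diet SIRT3KO array was 0.42 for Ugt2a3, 0.50 for Ugt2b35, 0.26 for Ugt2b1 and -0.22 for Gstm7, each with a limma adjusted p of 0.998. Leaving out the third high-fat wild-type array instead gave 0.35 for Ugt2a3, 0.31 for Ugt2b35 and 0.22 for Ugt2b1, none called. Ugt2a3 on the high-fat diet was at 11.77, 11.81 and 11.75 in SIRT3KO livers, against 11.89, 11.95 and 11.45 in wild-type livers. The high-fat groups overlapped, while those on the standard diet did not.

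Other genes of the same pathway were taken from lists of conjugation enzymes outside the 3 families, efflux pumps, cosubstrate supply, glutathione handling, regulators and their target genes. In both comparisons of genotypes and in the interaction no gene of these lists was called. Among 14 genes of the list of other conjugation enzymes 4 rose and 3 fell on the high-fat diet on the mean of both genotypes. The list median was 0.08, against 0.01 for all genes, and 18.0% of all genes were called. The list also holds the epoxide hydrolases Ephx1, Ephx2 and Ephx3, which are not conjugation enzymes. Inmt, which methylates indoleamines, rose by 1.73 and Hnmt, which methylates histamine, rose by 1.37, the largest differences of the list. Nnmt, which methylates nicotinamide, fell by 0.79 and As3mt, which methylates arsenic, fell by 0.63. Inmt, Hnmt and As3mt were also called within each genotype.

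Of 11 efflux pumps of conjugates, 3 rose and 1 fell on the mean of both genotypes, against 10.3% of all genes higher and 7.69% lower, which is also the background for the counts of the lists that follow. Abcg2, which exports sulfate conjugates among other compounds, rose by 0.72, Abcc6 by 0.38 and Abcc3, which exports glucuronides towards the blood, by 0.24. Abcc4 fell by 0.36. Of 10 genes of cosubstrate supply only Ugp2, which makes UDP-glucose, was called, at 0.40. Of 12 other genes of glutathione handling, Ggt6 (0.30) and Gpx1 (0.17) rose and Gss, glutathione synthetase, fell by 0.20.

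Among 14 genes of the regulator list 2 rose on the mean of both genotypes, Ppara by 0.36 and Nr1i3, the gene of CAR, by 0.28. The list also holds Cyb5a, the gene of cytochrome b5, which is not a regulator. Of 12 target genes of CAR and PXR, 4 rose and 3 fell, against 18.0% of all genes called in either direction. Cyp2c29 rose by 0.44 and Cyp2c50 by 0.34, whereas Cyp2b10 fell by 1.08 and Slco1a4 fell by 0.92, so members of this list moved in opposite directions. Of 10 NRF2 target genes, 2 fell, Abcc4 and Srxn1 (by 0.20), and 0 rose. Of 6 AHR target genes, Cyp1a2 rose by 0.27. With the first standard-diet SIRT3KO array left out Nr1i3, Srxn1, Tpmt and Ugp2 were not called, while Hnf4a and Rxra among the regulators and Gnmt among the other conjugation enzymes were called lower and Slc7a11 among the NRF2 targets higher. With the variance for an offset between the runs, Inmt was the one gene of these lists still called, in wild-type livers and on the mean of both genotypes.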

How the data were processed

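Liver RNA of 12 mice was measured on Affymetrix arrays, 3 per group, with groups as the labels give them. Log2 signals were deposited, which the authors computed by RMA using Affymetrix Expression Console, per the submitters' processing notes; the version and options are not given in the sources used here. RMA corrects background, normalizes the arrays of a run to a common distribution and summarises the probes of a set. The annotation gives 1 symbol to 21789 of 35557 probe sets, several to 1621 and none to the 12147 it does not list. For the 999 genes with several single-gene sets the one with the highest mean was kept, which gave 19938 genes. All 42 members had an Entrez ID in the RefSeq table, with the same symbol.

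Group means were fitted by limma 3.58.1 in R 4.3.3 with moderation along an intensity trend, which left 8 residual degrees of freedom and, after moderation, 14.5 at the median gene. Adjusted p-values run over all genes. Precision is limited by the number of arrays: the SE at the median gene was 0.114 for a pair of groups and 0.161 for the interaction. The fit was tested on simulated data. The offset between runs was given an SD of 0.215, estimated from 1231 chemosensory receptor genes. Tables were handled with pandas 2.3.3 and figures drawn with matplotlib 3.10.9.

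The members, gene lists and tests were chosen with earlier results of these data known, and the list of Y-linked genes was added later still. Named genes are every member called in any comparison, the 5 members with the smallest p where fewer were called, the brightest member of each class, members whose standard-diet genotype difference of at least 0.5 moved by over 1.5 times without the first SIRT3KO array, and up to 4 called genes of each list; the members named for groups that do not overlap, and Gstp1 between diets, were chosen after their values were seen. Replicate numbers were checked for pairing. Over 18 pairs of same-numbered arrays the correlation of their deviations was -0.27 to 0.41, over 0.1 in 5, so the numbers were taken not to pair the arrays. The third arrays of the standard-diet SIRT3KO, standard-diet wild-type and high-fat SIRT3KO groups correlated with one another at 0.29 to 0.41. With the third high-fat wild-type array each was negative. Arrays of different numbers were not compared, so an effect shared by the third arrays was not tested. The alternatives were quantile normalization, median centring, no trend, robust moderation, a filter on dim genes, the mean of probe sets, only the groups compared, the replicate block, the offset variance and leaving out each array. Sequences are from RefSeq on GRCm38.p6; the build of the array annotation is not given in the sources used here.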

Additional observations from a re-analysis of the deposited data

How the results depend on the processing

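The counts of called members differed by more than 1.5 times from those reported under the following settings. In SIRT3KO livers the 3 diet calls became 6 with quantile normalization of all arrays, 5 with cyclic loess, and 0 when only the groups compared were fitted. Of all genes 7.68%, 7.62% and 1.91% were called under these settings, against 5.11% reported. In wild-type livers the 3 diet calls became 5 when only the groups compared were fitted, and 6 when the first standard-diet SIRT3KO and the third high-fat wild-type array were both left out. The shares of all genes called were then 6.42% and 4.68%, against 5.99% reported. With a variance for the offset between runs, diet calls were 0 in SIRT3KO livers, 0 in wild-type livers and 0 on the mean of both genotypes, against 8 reported for the mean. All genes were called there at 0.0251%, 0.0351% and 0.0451%. Cyclic loess and leaving out both of these arrays were chosen after seeing the data. With the replicate number as a block, 3 members were called in SIRT3KO livers, 3 in wild-type livers and 9 on the mean. The shares of all genes were 5.14%, 5.81% and 18.1%. Between genotypes and in the interaction 0 members were called, against at most 0.00502% of all genes. In SIRT3KO livers Gstm4 was no longer called (limma adjusted p = 0.0564) and Sult1b1 was (0.0304). Leaving out 1 array at a time gave 0 to 9 diet calls in SIRT3KO livers, 0 to 4 in wild-type livers, 6 to 13 on the mean, 0 to 1 between genotypes on the standard diet, 0 to 0 on the high-fat diet and 0 to 1 for the interaction. In the same fits all genes were called at 1.81% to 6.45%, 1.95% to 6.63% and 13.3% to 17.6% for the diet comparisons. Between genotypes and in the interaction at most 0.0301% were called. In SIRT3KO livers the count was 1 without the first or the second standard-diet SIRT3KO array, 9 without the third, 1 without the second and 0 without the third high-fat SIRT3KO array, and 6 without the third high-fat wild-type array. In the same order 2.55%, 2.65%, 6.45%, 1.81%, 2.72% and 5.60% of all genes were called. In wild-type livers the count of members was 1 without the first or the second standard-diet array and 0 without the first high-fat array, against 2.55%, 2.24% and 1.95% of all genes. Without the third standard-diet SIRT3KO array the count was 13 on the mean, against 17.6% of all genes. Sult2a8 then became the 1 call among members between genotypes on the standard diet and in the interaction, against 0.0301% and 0.00502% of all genes. On the mean of both genotypes, Gstm4, Gstm5, Sult1b1, Sult1c2, Sult5a1 and Ugt3a1 were called with each of the 12 arrays left out in turn, and Gstt3 and Ugt2b37 with 3 of 12 each. Within SIRT3KO livers Sult1c2 was called with 8 of 12, Sult2a8 with 7 and Gstm4 with 3, and within wild-type livers Gstm5 with 11, Ugt3a1 with 9 and Sult1c2 with 8. Among the differences named for their test or size, the sign turned for Sult3a1 (-0.10) and Sult3a2 (-0.14) between genotypes on the standard diet, without the first SIRT3KO array and again without both of the above arrays, where all signals are at the low end of the scale. Over all 42 members 7 had the other sign there without the first SIRT3KO array, none of them called; leaving out 1 array at a time gave -0.10 to 2.71 for Sult3a1 and -0.14 to 1.61 for Sult3a2. The cause of the changes was not tested, except that the offset variance widens every diet error by construction. Leaving out the third standard-diet SIRT3KO array likewise enlarges by construction the Sult2a8 differences that use it. Among single genes, 693 of the other values kept their direction and side of the threshold, 73 lost a call and 11 gained one.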

Other observations

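The families also hold 12 probe sets that the annotation pairs with several symbols and that belong to no single gene. The set shared by 8 Ugt1a symbols, enzymes that glucuronidate bilirubin and phenols, was at 11.10, 11.28 and 11.24 in high-fat SIRT3KO livers and at 11.19, 11.26 and 11.11 in high-fat wild-type livers, against 10.96, 11.02 and 11.06 in standard-diet SIRT3KO livers and 10.96, 10.87 and 11.00 in standard-diet wild-type livers. High-fat arrays lay above standard-diet arrays in both genotypes. A set shared by Gsta1, Gsta2 and 2 predicted genes was at 9.63, 10.17 and 9.76 in high-fat SIRT3KO livers, against 9.57, 9.50 and 9.37 in high-fat wild-type livers. On the standard diet it was at 8.02, 9.37 and 9.63 in SIRT3KO livers, against 9.58, 9.02 and 9.29 in wild-type livers. The first standard-diet SIRT3KO array was 1.48 below the mean of the other arrays of its group there, and 1.08 to 1.28 below it in the other 3 sets with the same symbols. A set shared by Gstp1 and Gstp2 was at 10.39, 11.46 and 11.39 in standard-diet SIRT3KO livers, against 11.70, 11.46 and 11.68 in standard-diet wild-type livers, and was again lowest on the first SIRT3KO array. These sets were not tested.

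Gstm3 has a second, dimmer probe set. It was at 8.36, 8.69 and 8.29 in high-fat SIRT3KO livers, against 8.45, 7.88 and 8.39 in high-fat wild-type livers. As in the brighter set, the second high-fat wild-type array was the lowest of its group. In standard-diet SIRT3KO livers the dimmer set was at 8.09, 8.54 and 8.56, which overlapped its high-fat SIRT3KO values. The brighter set differed from it there, being higher on the high-fat diet by 0.29 without overlap, though not called.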
